A study of Mus musculus with 12 samples.

Results

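The regions described here are 274 places where RelA was listed 3 h after lipopolysaccharide (LPS) in wild-type mouse macrophages and where Ikaros had already been listed before LPS. They were chosen from 4972 wild-type RelA hotspots of 3 h that overlapped no hotspot of wild-type input DNA. A hotspot is a region enriched for sequence tags, called by the authors in a single library. The 274 overlapped an Ikaros hotspot of unstimulated wild-type cells by 1 bp or more and made up 5.51% of the RelA regions of 3 h. They covered 275 of the 853 resting Ikaros hotspots, or 32.2%. The choice used the presence of a region in these lists, so its presence there and its strength there are descriptions and not findings. All coordinates are on mm9 and are printed as deposited, without a gene name, because the gene table at hand is on another build.

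Macrophages were differentiated from the bone marrow of C57BL/6J mice. RelA was immunoprecipitated (antibody ab7970) in wild-type cells and in cells labelled as littermate controls, each at 0, 3 and 8 h of LPS. Ikaros (antibody M-20) was immunoprecipitated in wild-type cells at the same times, and input DNA came from untreated wild-type cells. Every group holds 1 library, and the labels give neither the age or number of animals nor the genotype of the littermate controls beyond that term. The deposited names of 6 of the 9 immunoprecipitated libraries carry a time other than the labelled one, in 4 of them beside it, and the labels were used throughout. All comparisons over time rest on these labels. No expression was measured in these libraries, so the macrophage label could not be checked against marker genes.

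RelA is a DNA-binding subunit of NF-kB, which inhibitor proteins hold in the cytoplasm of resting cells. LPS, which coats Gram-negative bacteria, is sensed through a Toll-like receptor, and this signal frees NF-kB to enter the nucleus and switch on inflammatory genes. Ikaros, encoded by Ikzf1, is a zinc finger DNA-binding protein of the blood lineages. It is known to recruit chromatin remodelling complexes and can act in repression or activation. A region that carries Ikaros before LPS and RelA after it is therefore a place where a resident regulator and a signal-driven one were both listed.

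The number of reads behind each library is unknown. The lists differ in length, from 47 regions for wild-type RelA at 0 h to 13796 for Ikaros at 8 h. They also differ in the lowest z score listed, between 8.64 and 10.9. The z score is the authors' own measure of enrichment of a hotspot. It ranks regions within a library, and z scores or tag densities of different libraries are given side by side without being a measure of change. The wild-type RelA library of 0 h stood apart, since 36 of its 83 deposited hotspots overlapped input. The littermate RelA lists held many sparse hotspots, with a median highest tag density of 4.11 to 4.56, against 18.5 to 25.5 in the wild-type RelA lists of 3 and 8 h. Shares below carry exact Clopper-Pearson 95% intervals, which cover counting error over regions only. With 1 library a group there is no spread between replicates and no test between times or between sets of regions. Regions are not replicates of a condition, and neighbouring ones are not independent.

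The distances within these pairs are a description, since an overlap of hotspots of these widths already places most centres near each other. There were 278 overlapping pairs of a RelA 3 h and an Ikaros 0 h hotspot, and their centres lay a median of 73.2 bp apart (interquartile range 34.1 to 142). In 176 pairs, 63.3%, the centres were within 100 bp of each other. The Ikaros hotspot lay wholly inside the RelA hotspot in 139 pairs, and the RelA hotspot lay wholly inside the Ikaros hotspot in 31. The RelA hotspots were a median of 644 bp wide and the resting Ikaros hotspots 500 bp. Distances were much the same for the later Ikaros lists, with medians of 65.0 bp at 3 h and 74.0 bp at 8 h. For the 2414 RelA regions, also chosen by overlap, where Ikaros was listed at 3 h but not at 0 h, called co-gained regions below, the centres lay a median of 68.0 bp apart.

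**Figure D1:**
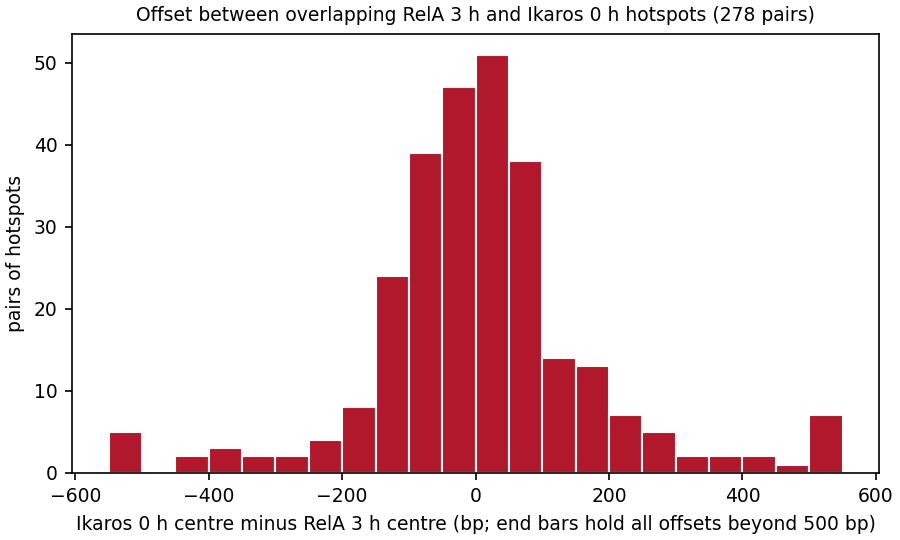
Signed distance in bp from the centre of a RelA 3 h hotspot to the centre of the resting Ikaros hotspot it overlaps, for all 278 pairs, in bars of 50 bp. Most pairs lie in the middle, with a median absolute distance of 73.2 bp, and 12 pairs lie over 500 bp apart.

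Few regions lay at the border of the choice. The smallest overlap was 41 bp, at chr15:78087717-78088842, where the RelA z score was 14.3 and the Ikaros 0 h z score 10.5. Only 4 pairs overlapped by under 100 bp. Just outside, the RelA region at chr2:145714236-145714562 (z 9.54) began 1 bp after the end of a resting Ikaros hotspot with a z score of 13.5. The next nearest, at chr19:55367412-55368284 (z 43.3), ended 57 bp before one with a z score of 26.0, and 20 RelA regions outside the choice had a resting Ikaros hotspot within 500 bp.

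The regions were spread over 20 chromosomes. Chromosome 2 held 33 of them, 12.0%, against 8.57% of all RelA 3 h regions and 10.8% of resting Ikaros regions. Chromosome 11 held 29, 10.6%, against 7.48% of RelA and 9.73% of Ikaros regions. The X chromosome held 3. Another of the 274 lay within 100 kb of 66 of them, which formed 30 groups of 2 or 3 neighbours. The tightest group of 3 spanned 4.69 kb at chr19:10057013-10061706, with RelA z scores between 11.2 and 18.3, and 2 of its 3 regions were listed again for RelA at 8 h in wild-type cells.

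The 274 regions reached from the weakest to the strongest RelA sites of 3 h. Their RelA z score had a lowest value of 8.90, a median of 16.2 and a highest value of 122, against a median of 12.9 over all 4972 regions. Of the 274, 94 fell in the strongest quintile of all RelA 3 h regions (z 20.6 to 122) and 26 in the weakest (z 8.88 to 9.97). Co-gained regions had a median z score of 14.7, and the 1357 RelA regions with no Ikaros hotspot at any time one of 11.0. Of the 274, 35 spanned 1000 bp or more, 12.8%, against 4.14% of all RelA 3 h regions, 6.55% of co-gained regions and 0.147% of those with no Ikaros. Strength and width at 3 h come from the library used for the choice, and a wide region meets an overlap of 1 bp more easily, so these values are a description.

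The strongest RelA region was chr10:77597384-77599198. Its RelA z scores in wild-type cells were 14.7 at 0 h, 122 at 3 h and 62.4 at 8 h. In littermate cells RelA was not listed at 0 h and had z scores of 72.4 at 3 h and 25.6 at 8 h, while Ikaros had z scores of 12.8, 49.3 and 52.8 at 0, 3 and 8 h. RelA thus topped the 3 h list over an Ikaros hotspot that was below the median of its own resting list (13.0). The second strongest, chr2:167602606-167603704, combined strong signals of both factors. Its RelA z scores were 17.7, 110 and 59.0 at 0, 3 and 8 h in wild-type cells, and its Ikaros z scores were 39.4, 73.4 and 93.7. A neighbour at chr2:167579186-167580092 had RelA z scores of 86.9 and 54.7 at 3 and 8 h in wild-type cells and none at 0 h. In littermate cells the same neighbour was listed at all 3 times, with z scores of 24.6, 47.9 and 41.6. Its resting Ikaros z score was only 11.6, so the 2 neighbouring regions had strong RelA over very unlike resting Ikaros.

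The other regions among the 10 strongest were all listed for RelA at 3 and 8 h in both series. They were chr11:117807380-117808507 (z 93.4 at 3 h in wild-type cells), chr11:59354491-59356649 (z 85.9), chr10:37057707-37058936 (z 84.8), chr17:29531743-29533017 (z 83.9), chr15:6518733-6519830 (z 79.4), chr17:18037460-18038460 (z 76.9) and chr6:134650462-134651470 (z 74.9). Their resting Ikaros z scores lay between 11.0 and 23.1. At chr15:6518733-6519830 the wild-type RelA libraries reached a tag density of 105 after 3 h and 148 after 8 h. At chr17:18037460-18038460 it was 134 and 160. Of the 10 strongest, 4 had a higher z score and highest density in the 8 h library than in the 3 h library, these 2 with chr10:37057707-37058936 and chr6:134650462-134651470, but the scale of densities between libraries is not stated.

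RelA was already listed before LPS at some of these regions, in both series. Of the 274, 15 were in the wild-type RelA 0 h list, 5.47% (3.10 to 8.87), against 0.744% of all RelA 3 h regions. In the littermate series 37 were in the 0 h list, 13.5% (9.69 to 18.1), against 3.58% of all RelA 3 h regions. Among the 4698 RelA 3 h regions off resting Ikaros sites the shares were 0.468% (0.294 to 0.708) and 3.00% (2.53 to 3.53). Thus 15 of the 47 wild-type RelA regions of 0 h, 31.9%, lay on one of the 274. In all, 42 of the 274 were in at least 1 of the 0 h RelA lists, 15.3% (11.3 to 20.1), against 187 of all 4972, 3.76%, and 10 were in both.

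Resting RelA was mostly found at the regions where RelA was strong at 3 h. In the strongest quintile 32 of 94 regions, 34.0% (24.6 to 44.5), were in a 0 h RelA list, against 91 of 901 other RelA regions of that quintile, 10.1% (8.21 to 12.3). In the middle quintile these were 6 of 50, 12.0% (4.53 to 24.3), and 14 of 944, 1.48% (0.813 to 2.48). In the next lower and the next higher quintile the intervals of the 2 sets overlapped, and in the weakest quintile none of the 26 regions was listed, which allows up to 13.2%. When all other RelA regions were weighted to the same make-up by quintile, 0.826% were in the wild-type 0 h list and 4.41% in the littermate 0 h list. Both of these lie below the shares of the 274. The strongest quintile spans z scores of 20.6 to 122, so the weighting did not even out strength within it. Among regions in the wild-type 0 h list, the 15 had a median RelA z score of 69.1 at 3 h, against 43.1 for the 22 others. Whether the higher shares go with strength within that quintile was not tested. Without removal of input hotspots the wild-type 0 h share was 8.65%, and with a reciprocal overlap of at least 50% it was 3.12% (6 of 192), against 0.382% of all RelA 3 h regions under the same overlap.

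The 15 regions with RelA in the wild-type 0 h list had a median RelA z score of 69.1 at 3 h (14.3 to 122). All 15 were listed for RelA at 3 h in littermate cells and at 8 h in wild-type cells, as were 35 and 36 of all 37 RelA 3 h regions in the wild-type 0 h list. Of the 15, 9 were listed in all 9 RelA and Ikaros libraries. They were also those of the 274 in all 6 RelA lists, 3.28%, against 25 of 4972, 0.503%, of all RelA 3 h regions. The 5 strongest of the 9 were chr11:59354491-59356649, chr10:37057707-37058936, chr15:6518733-6519830, chr17:18037460-18038460 and chr11:70281016-70281826. At the last of these the wild-type RelA z score was 20.1, 69.1 and 67.2 at 0, 3 and 8 h. In littermate cells RelA had 39.9, 67.0 and 42.9 there, and Ikaros had 21.1, 27.3 and 34.1 in wild-type cells. Other regions with wild-type RelA at 0 h were chr16:3722996-3723974 (z 11.1 at 0 h and 70.9 at 3 h), chr13:20878582-20880362 (14.2 and 67.3) and chr1:133173183-133174078 (10.3 and 52.5). Within the wild-type 0 h list the 15 had a median z score of 12.9 and a highest of 20.1, against a median of 12.7 for the whole list.

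**Figure D2:**
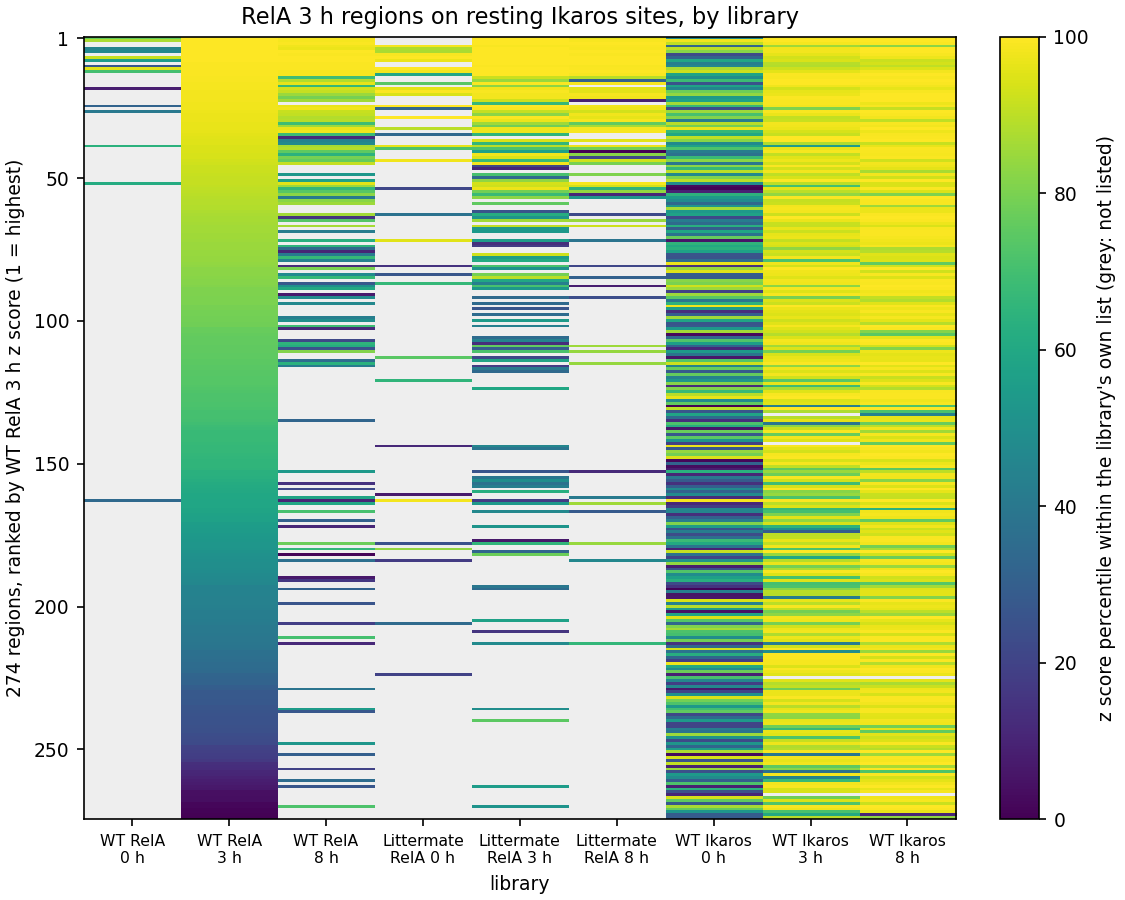
Each row is 1 of the 274 regions, ranked from the highest to the lowest RelA z score at 3 h, and each column is a library. Colour gives the percentile of the region's z score within that library's own list and grey means not listed. RelA at other times is concentrated in the upper rows, while Ikaros at 3 and 8 h is listed in almost every row, mostly high in its lists.

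At 8 h RelA was still listed at fewer than 50% of the regions in either series. In wild-type cells 118 of the 274 were listed, 43.1% (37.1 to 49.2), against 31.3% of all RelA 3 h regions. Among co-gained regions the share was 36.0% (34.1 to 38.0) and among those with no Ikaros 16.1% (14.2 to 18.2). In littermate cells 65 of the 274 were listed at 8 h, 23.7% (18.8 to 29.2), against 17.1% of all. The difference from other RelA regions shrank when strength was taken into account. All other RelA regions weighted to the same make-up by quintile had 42.0% at 8 h in wild-type cells and 24.8% in littermate cells. Co-gained regions so weighted had 40.6%, and regions with no Ikaros 35.5%, in wild-type cells. The 927 RelA regions with Ikaros listed at 8 h only had 37.6% in wild-type cells before weighting. So weighted they had 52.0% in wild-type cells and 34.0% in littermate cells, both above the shares of the 274. The sets thus did not fall in the order in which Ikaros was first listed.

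Within the 274, persistence was concentrated in the strongest RelA quintile, with shares of 15.8% to 30.0% in the 4 others. In the strongest quintile 76 of 94 were kept in wild-type cells at 8 h, 80.9% (71.4 to 88.2), against 76.7% (73.8 to 79.4) of other RelA regions. In the quintile below it 16 of 66 were kept, 24.2% (14.5 to 36.4), against 39.1% (36.0 to 42.3). In the weakest quintile 5 of 26 were kept, 19.2% (6.55 to 39.4), against 6.60% (5.12 to 8.36). The sets thus changed order between quintiles, and their intervals overlapped in all 5. The wild-type list of 3 h reached down to a z score of 8.88 and that of 8 h to 10.9, so the share was also taken without the weaker regions. Since z scores of different libraries share no known scale, this does not measure the part of the gap in the shares. Among the 225 of the 274 with a 3 h z score no lower than the lowest of the 8 h list, 48.4% (41.8 to 55.2) were kept, against 42.1% (40.4 to 43.7) of all such RelA regions.

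**Figure D3:**
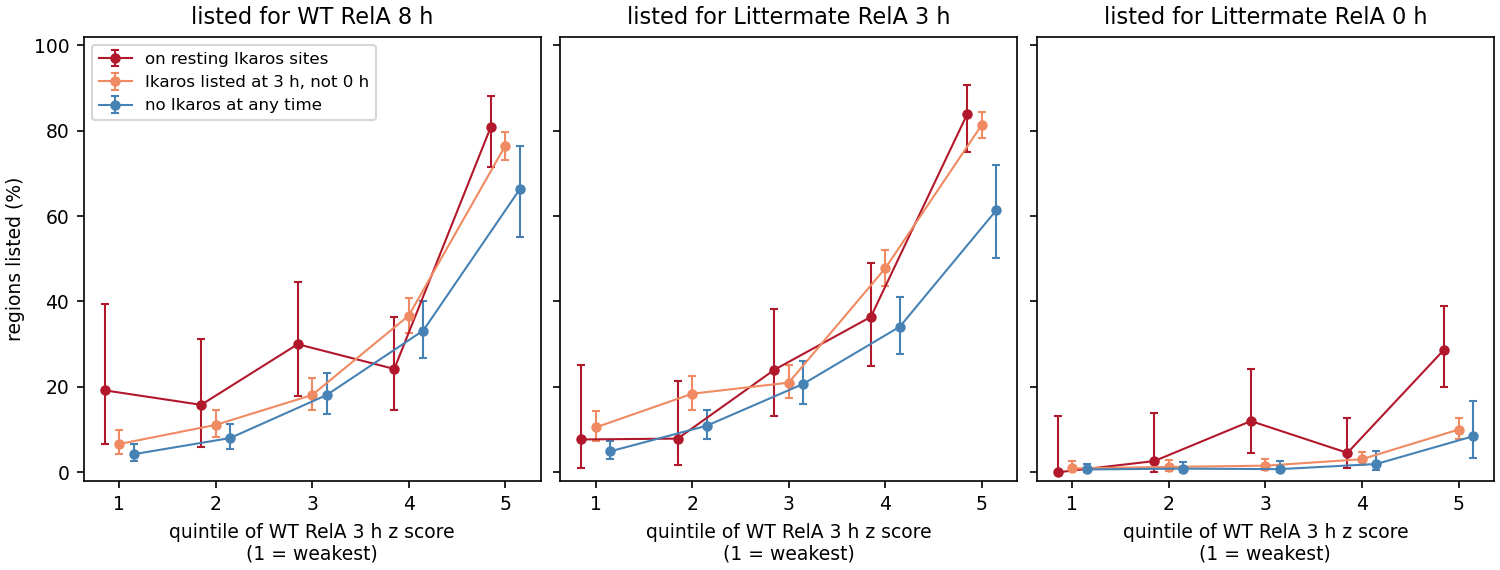
Percent of wild-type RelA 3 h regions listed for wild-type RelA at 8 h (left), littermate RelA at 3 h (middle) and littermate RelA at 0 h (right), by quintile of RelA z score at 3 h. Points are shares and bars exact 95% intervals, for regions on resting Ikaros sites, co-gained regions and regions with no Ikaros. In the first 2 panels all sets are highest in the strongest quintile, and in the strongest quintile of the right panel the regions on resting Ikaros sites reach 28.7%, against 10.0% of co-gained regions.

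The littermate series listed most of the persistent regions and few of the others, as it did over all RelA 3 h regions. At 3 h 120 of the 274 were in the littermate RelA list, 43.8% (37.8 to 49.9), against 34.4% of all RelA 3 h regions and 45.6% of the other regions weighted to the same make-up. Of the 118 kept at 8 h in wild-type cells, 93 were in the littermate 3 h list, 78.8% (70.3 to 85.8), against 27 of the 156 not kept, 17.3% (11.7 to 24.2). Over all RelA 3 h regions the shares were much the same, at 75.3% (73.0 to 77.4) of kept and 15.8% (14.6 to 17.1) of other regions. All 65 regions in the littermate 8 h list were also in the wild-type 8 h list, 100% (94.5 to 100). Over all RelA 3 h regions 778 of 851 were, 91.4% (89.3 to 93.2). Hence 156 regions carried RelA at 8 h in neither series and 65 in both. Over the 120 shared regions the RelA z scores of the wild-type and littermate 3 h libraries had a Pearson r of 0.86 and a Spearman rho of 0.76, as a description across regions.

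The remaining large class was listed for RelA in the wild-type 3 h library alone. It held 126 regions, 46.0% (40.0 to 52.1) of the 274, against 57.0% (55.6 to 58.4) of all RelA 3 h regions, 50.2% (48.2 to 52.2) of co-gained regions and 74.9% (72.5 to 77.2) of those with no Ikaros. These shares were not weighted by strength. The strongest quintile held 34.3% of the 274, against 28.0% of co-gained regions and 6.12% of those with no Ikaros. Whether the lower share of the 274 goes with their strength was not tested. The RelA z scores of the 126 were 8.90 to 31.1 with a median of 12.2, against a median of 12.9 for the whole RelA 3 h list, and 10 of them were in its strongest quintile. After LPS their Ikaros z scores had medians of 29.8 at 3 h and 38.3 at 8 h, against medians of 13.6 and 14.4 for the whole Ikaros lists. Over all 274 the medians were 30.5 and 41.1, so high Ikaros after LPS was not particular to this class.

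Among regions with RelA at 8 h in neither series, chr3:148882750-148883835 was the strongest at 3 h. RelA had a z score of 47.9 in wild-type cells and 18.4 in littermate cells at 3 h, and it was listed at no other time. Ikaros had z scores of 20.6, 52.6 and 40.5 there at 0, 3 and 8 h. The next were chr7:148141906-148142878 and chr11:53576091-53576903, both with a wild-type RelA z score of 31.2. They were followed by chr12:81986054-81986827 (31.1) and chr6:134139599-134140347 (29.9). All 5 kept Ikaros at 3 and 8 h, with z scores of 28.6 to 63.1 at 3 h and 25.2 to 41.6 at 8 h.

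**Figure D4:**
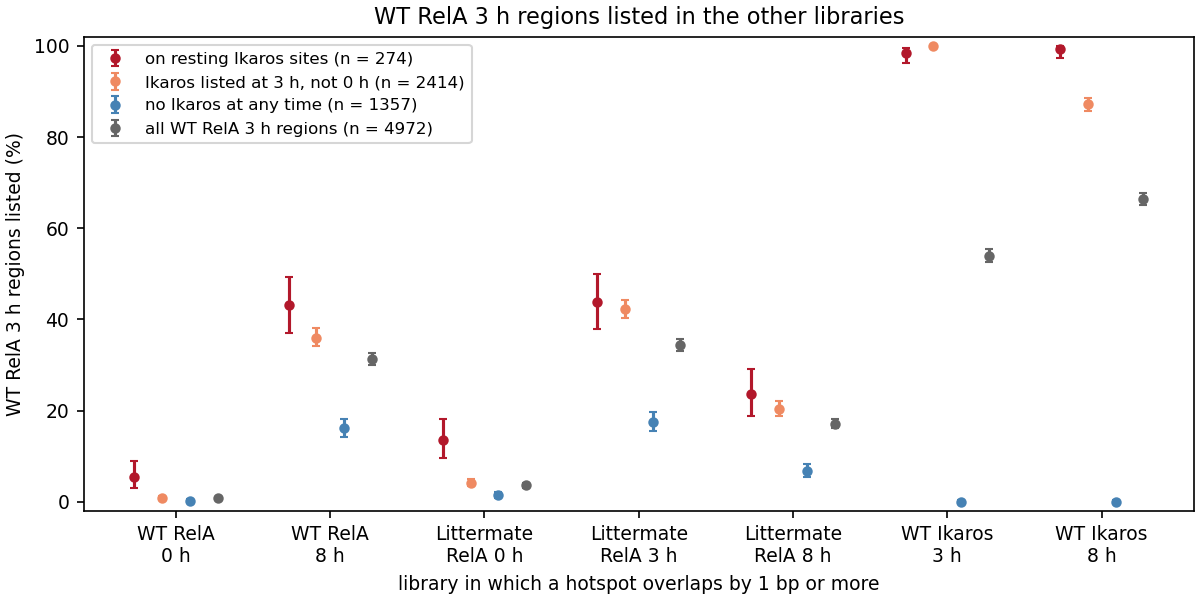
Percent of wild-type RelA 3 h regions that overlap a hotspot of each other library, for the 274 regions on resting Ikaros sites, the 2414 co-gained regions, the 1357 with no Ikaros and all 4972, with exact 95% intervals. The Ikaros shares of 100% for co-gained regions at 3 h and of 0 for regions with no Ikaros follow from how those sets were made.

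Ikaros remained listed at almost all of the regions after LPS. It was listed at 270 of the 274 at 3 h, 98.5% (96.3 to 99.6), against 54.0% of all RelA 3 h regions. At 8 h it was listed at 272, 99.3% (97.4 to 99.9), against 66.5%. The nearer comparison is with other resting Ikaros sites. Of the 275 resting Ikaros regions under the 274, 98.5% (96.3 to 99.6) were listed at 3 h, against 88.7% of all 853 resting Ikaros regions and 84.1% (80.8 to 87.0) of the 578 without RelA at 3 h. At 8 h the shares were 99.3% (97.4 to 99.9), against 93.9% of all and 91.3% (88.8 to 93.5) of those without RelA.

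Seen from the resting Ikaros sites, RelA at other times and in littermate cells was found almost wholly under the 274 regions. In wild-type cells 15 of the 275 resting Ikaros regions under them were listed for RelA at 0 h, 5.45%, against 1.99% of all 853. At 8 h 117 were listed, 42.5%, against 14.1% of all. In littermate cells the 0 h list held 37 of the 275, 13.5%, against 4.69% of all, and the 3 h list held 119, 43.3%, against 14.2%. The littermate 8 h list held 64, 23.3%, against 7.74%. Of the 578 resting Ikaros regions without wild-type RelA at 3 h, each of these 5 lists held only 2 or 3. The split by RelA at 3 h is part of how the 274 were chosen, so these counts describe how nested the lists are.

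Where Ikaros was listed after LPS, it stood high in its lists. At 3 h the median region of the 270 was at percentile 94.7 of the Ikaros list by z score, and 188 of them, 69.6%, were in its upper 10%. At 8 h the median was at percentile 97.4, and 227 of 272, 83.5%, were in the upper 10%. Resting Ikaros sites without RelA at 3 h had median percentiles of 83.1 at 3 h and 89.4 at 8 h, with 35.2% and 48.3% in the upper 10%. Before LPS the 2 kinds of Ikaros site had been alike in z score, with a median of 13.2 under the 274 regions and 13.0 without RelA. Co-gained RelA regions had a median percentile of 61.6 in the Ikaros list of 3 h, with 12.3% in the upper 10%. Percentiles in lists of unequal length do not measure change over time, so only sets within the same list are set side by side.

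The Ikaros hotspots of these regions were also wide after LPS. Their median width was 500 bp at 0 h, 826 bp at 3 h and 910 bp at 8 h, against 487, 533 and 566 bp in the whole Ikaros lists. In the medians of these regions, a hotspot shared by several of them counts once for each. The whole lists of 3 and 8 h also hold sites first listed after LPS. Widths after LPS at resting Ikaros sites without RelA were not compared, so great width is not shown to be particular to these regions. At 0 h none of the 274 reached 2000 bp, while 13 did at 3 h and 19 at 8 h. Some shared a hotspot, so the number of distinct Ikaros hotspots is the one to set against the lists. At 3 h 10 of the 267 hotspots under the regions reached 2000 bp, 3.75%, against 0.661% of the whole list. At 8 h 15 of 271 did, 5.54%, against 0.290%. A wide hotspot also overlaps a region more easily. The widest RelA region, chr17:35334857-35339851, spanned 4994 bp at 3 h. Its strongest Ikaros hotspot was 739 bp wide at 0 h, 5191 bp at 3 h and 5147 bp at 8 h. The z scores were 15.3, 214 and 204, the highest Ikaros z score at 3 h and at 8 h among the 274. This region and the next widest were the 2 of the 274 that overlapped 2 or more separate resting Ikaros hotspots. Their 0 h widths are those of the strongest alone, so they do not measure a widening. RelA there had a z score of 56.3 at 3 h and 31.5 at 8 h in wild-type cells and was listed at 0 h in neither series. The next widest were chr5:143663170-143667894, with strongest Ikaros hotspots of 1203, 5638 and 5554 bp, and chr12:56587784-56590485, with 353, 5700 and 6303 bp. In these 3 the strongest overlapping wild-type RelA hotspot of 8 h was narrower, at 1363, 1181 and 324 bp. The 118 of the 274 listed at 8 h overlapped 125 such hotspots. A region can thus hold more than 1, and these widths do not measure a narrowing of RelA. The threshold and depth behind these widths are unknown.

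Regions that kept RelA at 8 h differed little in early Ikaros from those that did not. The 118 kept in wild-type cells had a median Ikaros z score of 13.5 at 0 h and 29.7 at 3 h, against 12.9 and 30.7 for the 156 not kept. At 8 h the medians were 46.8 for kept and 39.0 for other regions, and 91.5% and 77.3% of those listed were in the upper 10% of the Ikaros 8 h list. In the strongest RelA quintile the 76 kept regions had a median Ikaros z score of 13.8, 32.6 and 51.7 at 0, 3 and 8 h, and the 18 not kept 16.2, 38.0 and 39.4. At 8 h the kept regions had the higher median also in quintiles 1, 2 and 4, counted from the weakest, at 61.3, 52.8 and 44.3 against 40.7, 36.6 and 38.1 for regions not kept. In the middle quintile they had the lower one, at 34.1 for the 15 kept and 37.0 for the 35 not kept. The 2 lowest quintiles hold only 5 and 6 kept regions.

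The strengths of RelA at 3 h and of resting Ikaros come from the lists used for the choice, so their relation is a description. Only regions that passed the threshold of both lists enter it. Across the 274 regions, which share 1 library of each factor, the z scores of RelA at 3 h and of Ikaros at 0 h had a Pearson r of 0.15 and a Spearman rho of 0.16. The Ikaros z scores of 0 h and 3 h were more alike over these regions, with an r of 0.43 and a rho of 0.52. Seen over all 853 resting Ikaros regions, the share under one of the 274 was 25.1% (18.8 to 32.3) in the weakest quintile of resting Ikaros z score and 33.9% (26.9 to 41.5) in the strongest. It was highest in the second, at 37.1% (29.8 to 44.8), so it did not rise steadily.

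**Figure D5:**
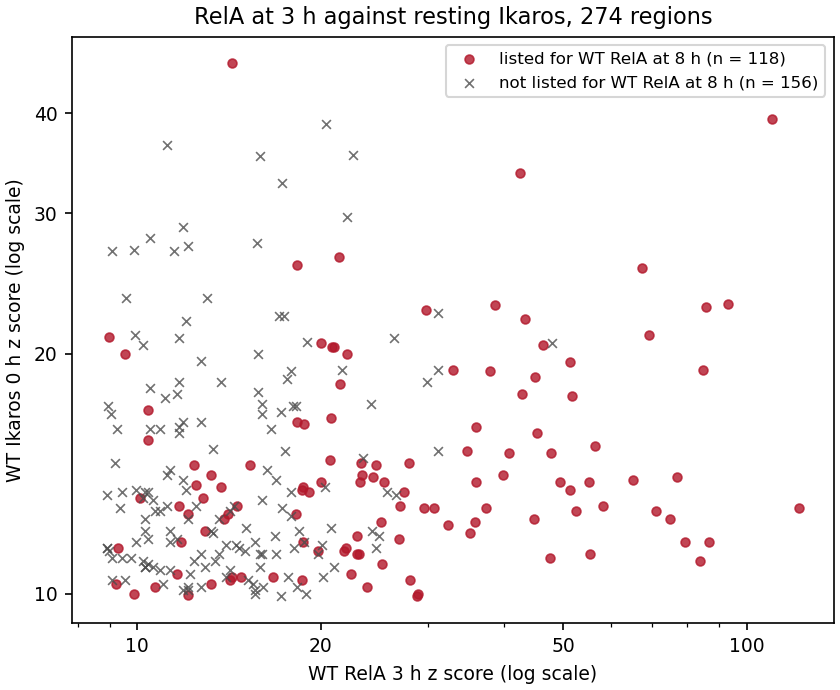
RelA z score at 3 h against Ikaros z score at 0 h for the 274 regions, both on log scales. Circles are the 118 regions listed for wild-type RelA at 8 h and crosses the 156 not listed. The circles lie mainly at high RelA z scores and are spread over the whole range of Ikaros z scores.

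The 5 regions with the most resting Ikaros had unlike RelA at 3 h in wild-type cells, with z scores from 11.2 to 110. The highest resting Ikaros z score, 46.2, was at chr12:86764729-86765306, with Ikaros z scores of 67.4 and 87.3 at 3 and 8 h. RelA was modest there in wild-type cells, with z scores of 11.8, 14.3 and 11.6 at 0, 3 and 8 h. In littermate cells it had 24.4 at 0 h and 10.1 at 3 h and was not listed at 8 h. This was the region with the weakest RelA at 3 h of the 15 in the wild-type 0 h list. Next came chr2:167602606-167603704 (Ikaros 39.4), described above, and chr2:50545493-50546241 (38.8). The list continued with chr4:88286815-88287314 (36.5) and chr2:128075207-128075929 (35.5). The last 3 had RelA in the wild-type 3 h list alone, with z scores of 20.4, 11.2 and 22.6. Of the 5 regions with the most resting Ikaros, 1 was among the 10 of the 274 with the most RelA, too few to read a relation from.

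A few regions stood outside the common pattern. Ikaros was not listed at 3 h at 4 of the 274, and at 2 of these 4 it was also not listed at 8 h. These 2 were chr12:114662710-114663038 (RelA z 10.9, resting Ikaros z 16.1) and chr6:136752868-136753255 (9.09 and 10.4). The other 2, chr3:21834708-21835359 and chr1:90483854-90484429, had RelA z scores of 16.9 and 15.9 and Ikaros z scores of 13.7 and 20.3 at 8 h. None of the 4 had RelA in any list but that of 3 h in wild-type cells. Absence from the littermate lists was common, in contrast. Of the 274, 151 were in neither the 3 h nor the 8 h littermate list, against 3200 of all 4972 RelA 3 h regions, which is a larger share. Among the 151 the strongest RelA was at chr12:112692579-112694992 (z 38.7, highest tag density 54.9). It was kept in wild-type cells at 8 h (z 11.8) and had Ikaros z scores of 23.0, 98.1 and 60.6. The next 4 by RelA z score were the above-named chr12:81986054-81986827, and chr3:37667868-37668695 (27.0), chr19:11130055-11130886 (26.6) and chr15:64051512-64052283 (26.4). Only the first of these 3 had RelA at 8 h in wild-type cells, with a z score of 27.0.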

How the data were processed

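The labels' protocols give single-end sequencing of immunoprecipitated DNA. The submitters' processing notes name mm9 and CASAVA. How tags were aligned, how hotspots were called and at what threshold, and whether input was subtracted is not given in the sources used here. Per the file headers, the deposited values of a hotspot are its highest and mean tag density, a signal of unstated scale, a z score and a p-value. The p-value was not used.

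Hotspots overlapping a wild-type input hotspot by 1 bp or more were removed from all 9 lists. Regions overlapping by 1 bp or more were called shared, and the strongest overlapping hotspot by z score gave a region's value. Widths are end minus start. Quintiles are of z score over all 4972 RelA 3 h regions. Weighted shares use the make-up of the 274 by quintile. The overlap code was tested on simulated data, and on the real lists it and bedtools 2.31.1 each found 274 regions. Python 3.11.15, numpy 2.4.6, pandas 2.3.3, scipy 1.17.1 and matplotlib 3.10.9 were used.

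The 274 regions, the compared sets and the rule for named regions were chosen with earlier results of these data known. The rule names the regions strongest in RelA or resting Ikaros, those in all lists, those lost at 8 h, those with resting RelA, those without later Ikaros or littermate RelA, the widest and the border cases. Gene and promoter tables at hand are on GRCm38.p6, so genes, motifs and sequences were not assigned. The input samples of the littermate and knockout animals were not analysed here. No unlabelled columns were used.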

Additional observations from a re-analysis of the deposited data

How the results depend on the processing

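Values are taken as moved where a share falls outside its printed 95% interval or a number of regions differs more than 1.5 times. The median distance between centres, recomputed under the reciprocal overlap alone, was held against its printed interquartile range, a looser bound. Of 71 recomputed values, 13 moved and 58 did not. With a reciprocal overlap of at least 50%, 192 regions remained, of which 36.5% were listed for RelA at 8 h in wild type, 37.5% and 17.2% for littermate RelA at 3 and 8 h, and 82.3% and 76.0% for Ikaros at 3 and 8 h. With centres within 250 bp, the Ikaros shares were 93.1% and 91.4%. With the upper 50% of every list by z score, 96 regions were left, and 22.6% of regions with no Ikaros kept RelA at 8 h. With as many Ikaros hotspots of 8 h as of 3 h, taken by z score, that share was 21.1%. With RelA 3 h regions held to the lowest z score of the 8 h list, an alternative chosen after seeing the data, 51.6% of regions were in the littermate 3 h list. Of co-gained regions 44.5%, and of those with no Ikaros 26.7%, then kept RelA at 8 h. The 5 RelA shares of regions on resting Ikaros sites stood above those of all RelA 3 h regions under all 7 alternatives, without weighting by strength. For littermate RelA at 3 and 8 h they were 43.8% and 23.7%, below the 45.5% and 24.8% of all RelA 3 h regions weighted to the same make-up by quintile. For wild-type RelA at 8 h they were 43.1%, against 42.0% so weighted.

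No paired analysis was possible because replicate numbers are absent from the labels and no value comes from a test. Leaving out a library was not run, since a group holds only 1. The planned motif and gene alternatives were not run, for want of a genome and annotation on mm9. Depth is unknown, and with it the least enrichment that each library detects.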
